A study of Mus musculus with 12 samples.

Results

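The response of mouse embryonic stem (ES) cells to the BET bromodomain inhibitor JQ1 was examined in serum and LIF, across all genes. The 2 libraries of unmodified cells treated with JQ1 were set against the 2 of unmodified cells given only its solvent, DMSO, which are 4 of the 12 libraries in the series. Both groups carried no engineered GSK3 knockout in their labels and were harvested at 60 h, with JQ1 at 100 nM. Their medium was DMEM with 15% fetal bovine serum and 1000 U/ml LIF. The cells had been maintained on mouse embryonic fibroblasts arrested with mitomycin C and were then moved to gelatin, so RNA of carried-over feeder cells can be present. The other 8 libraries hold unmodified cells in serum-free 2iL medium, in which inhibition of MEK and of GSK3 is combined with LIF, and GSK3 knockout cells in serum and LIF, each with DMSO or JQ1. Whether the replicates of a group came from different cultures is not in the labels, and the tests therefore rest on library-to-library spread that may be technical.

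BET proteins bind acetylated histones through paired bromodomains and help RNA polymerase II to leave its pause near promoters. JQ1 fills the acetyl-lysine pocket of these bromodomains and releases the proteins from chromatin. LIF sustains ES cells through STAT3, and serum brings BMP and other growth factors. Under these conditions ES cells fluctuate between a naive state marked by factors such as Nanog and states that begin to express genes of early lineages.

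Library totals were 48723436 and 19467093 expected counts with DMSO and 22922418 and 20396918 with JQ1, and mitochondrially encoded genes took 9.44% and 11.9% of counts with DMSO and 6.45% and 7.51% with JQ1. Levels are given as counts per 1e6 library counts after scaling of the library size (CPM), the first DMSO or JQ1 library before the second. The identity of the cells was checked on 8 ES cell markers, whose summed level was 2974 and 3285 CPM with DMSO and 3479 and 3642 CPM with JQ1. All 8 were detected, Epcam rose and Zfp42 fell. Pou5f1, which encodes the core factor Oct4, stood at 544 and 582 CPM with DMSO and 417 and 652 CPM with JQ1 (log2 fold change -0.07 ± 0.17) and did not pass. Markers of fibroblasts, the feeder cell type, were present as well. They summed to 890.1 and 875 CPM with DMSO and to 377 and 369 CPM with JQ1, and all 9 of 9 tested fell, 6 of them in each of the 12 alternative analyses. In a wider list of fibroblast genes 10 fell in each alternative, but Fbn1 did not pass (-0.273 ± 0.215). Of the contractile genes only 1, Myl9, fell in each alternative (-1.15 ± 0.21). Acta2 (-0.12 ± 0.28), Cnn1 (0.36 ± 0.35) and Tpm1 (0.12 ± 0.23) did not pass. The fall was thus not uniform over fibroblast and contractile genes. Endothelial and blood markers summed to 24.8 and 47.9 CPM with DMSO and 11.1 and 15.1 CPM with JQ1, almost all of it Pecam1, which ES cells also express, while the blood marker Ptprc was at 0.122 and 0 CPM with DMSO. In bulk RNA, fewer cells of a type and less RNA per cell cannot be told apart.

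JQ1 changed 3649 of the 16987 genes tested (21.5%) at an adjusted p under 0.05, of which 1467 rose (8.64% of genes tested) and 2182 fell (12.8%). Large changes were mostly falls. A fall of 1 or more on the log2 scale was called for 1528 genes (9% of those tested) and a rise of that size for 162 (0.954%). The 2 JQ1 libraries lay both above or both below the 2 DMSO libraries for 10021 genes (59%), so the absence of overlap alone is common here. The fit of these 4 libraries alone called 2330 of 15850 genes (14.7%), with 627 higher (3.96%) and 1703 lower (10.7%), so that rises made up 26.9% of its calls against 40.2% in the fit of all 12 libraries. Of the 1467 genes that rose, 351 kept the call in all 12 alternatives, as did 865 of the 2182 that fell. Below, a gene is said to have risen or fallen with no further remark only where its call held in every one of these alternatives. Counts over gene lists are those of the fit of all 12 libraries. They are to be read against the shares over all genes tested, 8.64% risen and 12.8% fallen. The median log2 fold change of all genes tested was -0.015.

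**Figure D1:**
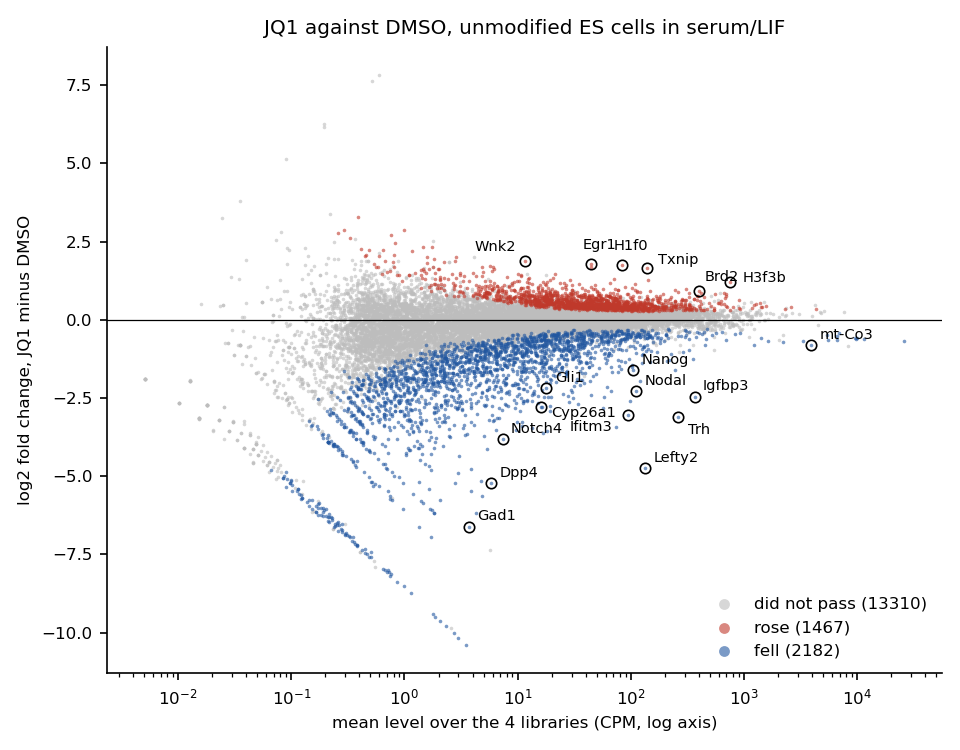
Each point is 1 gene, placed by its mean level over the 4 libraries in CPM (horizontal log axis) and by its log2 fold change, JQ1 minus DMSO (vertical axis). Red points rose (1467), blue points fell (2182) and grey points did not pass. Falls reached much larger sizes than rises, and genes with no counts with JQ1 form the diagonal at the lower left (28 genes at 0 in all 4 libraries are not drawn).

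Nodal signalling fell at the level of ligands, coreceptors and targets, while the genes of its receptors and most Smads did not pass. Nodal is a secreted ligand of the TGF-beta family that patterns the early embryo and signals through activin receptors and the transducers Smad2 and Smad3. Of 18 genes of the pathway tested, 9 fell and 1 rose, and the same number fell or 1 more fell in each alternative. Their median log2 fold change was -0.64. The ligand Nodal (ENSMUSG00000037171.6, chromosome 10, 61417972 to 61425338, GRCm38) stood at 187 and 181 CPM with DMSO and 42.5 and 33.4 CPM with JQ1, a log2 change of -2.27 ± 0.17 (adjusted p = 3.79e-06). Both JQ1 libraries were low, with no overlap. The related ligand Gdf3 went from 88.8 and 119 to 29.3 and 36.2 CPM (-1.66 ± 0.14). Inhbb, which encodes a subunit of activin, went from 6.58 and 8.39 to 0.652 and 0.774 CPM (-3.37 ± 0.34).

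The largest falls were in targets that feed back on the pathway. Lefty2 (ENSMUSG00000066652.5, chromosome 1, 180893108 to 180899103), a secreted inhibitor of Nodal and one of its targets, was at 213 and 306 CPM with DMSO and 8.60 and 10.7 CPM with JQ1. That is a log2 change of -4.75 ± 0.56 (adjusted p = 0.00113). Its neighbour and close paralog Lefty1 was at 105 and 166 CPM with DMSO and 11.9 and 13.4 CPM with JQ1 (-3.42 ± 0.45); reads that fit both copies could have been split between them, so the separate values are uncertain. Foxh1, the DNA-binding partner of Smads, fell by 0.98 ± 0.13 and the convertase gene Pcsk6, whose product cuts the Nodal precursor, by 0.88 ± 0.14. Tdgf1, the Nodal coreceptor, was at 260.4 and 355 CPM with DMSO and 126 and 159 CPM with JQ1 (-1.11 ± 0.22), and lost its call without JQ1 replicate 1. The receptor genes Acvr1b (0.00 ± 0.15), Acvr2a (-0.01 ± 0.16) and Acvr2b (-0.14 ± 0.12) and the transducers Smad2 (0.19 ± 0.14) and Smad3 (0.31 ± 0.16) did not pass. Smad4, the shared partner of all receptor Smads, rose from 67.0 and 58.1 to 94.3 and 89.7 CPM (0.55 ± 0.10). The second convertase, Furin, was -0.40 ± 0.22 and did not pass, except with the replicate number as a block (adjusted p = 0.0141).

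**Figure D2:**
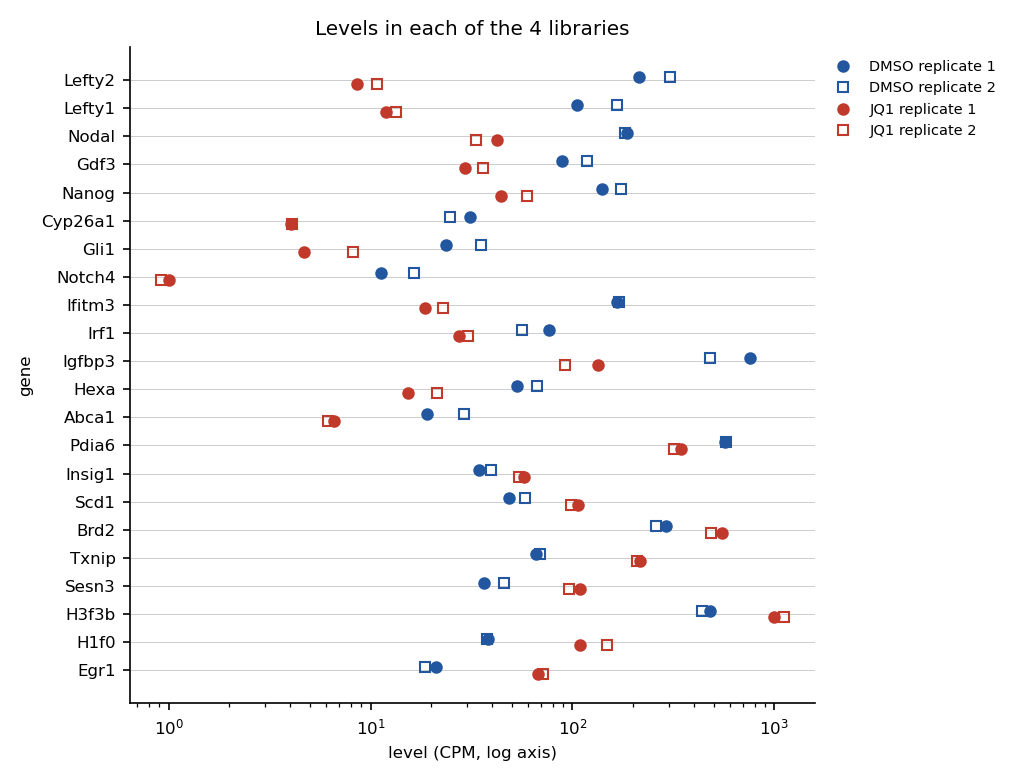
Levels of 22 genes in each of the 4 libraries, in CPM on a log axis. Blue marks DMSO and red JQ1, filled circles replicate 1 and open squares replicate 2. The genes from Lefty2 down to Pdia6 were lower in both JQ1 libraries and those from Insig1 down to Egr1 higher, and for every gene drawn the 2 JQ1 symbols lie on 1 side of the 2 DMSO symbols.

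Naive pluripotency factors fell broadly: 15 of 20 tested passed downward and 1 upward, with a median of -0.97, and 10 of the 15 fell in every alternative. Nanog (ENSMUSG00000012396.12, chromosome 6, 122707489 to 122714633) stood at 140.1 and 174 CPM with DMSO and at 44.3 and 59.6 CPM with JQ1 (-1.60 ± 0.15, adjusted p = 1.81e-05). The nuclear receptor genes Nr5a2 and Nr0b1 went from 27.2 and 41.6 to 4.43 and 4.60 CPM (-2.92 ± 0.19) and from 17.7 and 28.0 to 2.39 and 5.18 CPM (-2.59 ± 0.32). Fbxo15, an F-box gene used as a reporter of the pluripotent state, went from 42.4 and 62.0 to 6.65 and 11.7 CPM (-2.51 ± 0.28). The zinc finger factors Klf2 and Klf4 fell by 0.98 ± 0.17 and 0.96 ± 0.14, and Tdh, the threonine dehydrogenase on which mouse ES cells depend, by 1.03 ± 0.19. In Nanog, Nr0b1, Fbxo15 and Tdh the second library of each treatment was the higher one, and the 2 treatments did not overlap. Zfp42, better known as Rex1, was at 121 and 182 CPM with DMSO and 53.5 and 91.2 CPM with JQ1 (-1.07 ± 0.24); that call ended without DMSO replicate 2 and in the fit of 4 libraries (adjusted p = 0.0524). Esrrb (-0.74 ± 0.22), Dppa5a (-0.96 ± 0.25), Tfcp2l1 (-0.67 ± 0.16) and Tbx3 (-0.46 ± 0.12) passed but each lost the call in 2 or more alternatives, among them the fit without DMSO replicate 2. Klf5 (-0.06 ± 0.12), Dppa2 (-0.07 ± 0.24), Dppa3 (0.16 ± 0.38) and Dppa4 (-0.18 ± 0.15) did not pass. Gbx2 was higher by 0.84 ± 0.23, a call that ended in the fit of 4 libraries (adjusted p = 0.0572), without DMSO replicate 1 and without JQ1 replicate 2.

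The promoters of Nanog and Zfp42 are shown because they are the 2 of 11 naive genes with a RefSeq promoter window that hold the octamer-like letters TTTGCAT bound by Oct4. The windows are the 250 bases before the start site, on the gene's strand, from RefSeq on GRCm38.p6, at chr6:122707239-122707488 (plus strand) for Nanog and chr8:43307010-43307259 (minus strand) for Zfp42. Motifs were searched on both strands. Capitals mark TTTGCAT in Zfp42 and in Nanog the longer composite element of Oct4 and Sox2, searched as TTTGCAT followed by any base and ACAA.
Nanog: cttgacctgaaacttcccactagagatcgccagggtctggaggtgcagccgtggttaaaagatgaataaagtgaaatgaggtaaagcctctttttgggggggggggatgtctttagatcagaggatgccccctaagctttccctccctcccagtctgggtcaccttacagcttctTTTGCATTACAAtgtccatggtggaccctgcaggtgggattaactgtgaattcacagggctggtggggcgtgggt
Zfp42: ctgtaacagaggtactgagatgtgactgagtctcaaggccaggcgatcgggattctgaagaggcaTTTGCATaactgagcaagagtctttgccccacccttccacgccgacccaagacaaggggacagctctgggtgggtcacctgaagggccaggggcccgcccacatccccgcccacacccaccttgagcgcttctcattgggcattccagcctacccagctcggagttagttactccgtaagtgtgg
The composite element ends 63 bases before the start site of Nanog, and the letters TTTGCAT end 178 bases before that of Zfp42. Over all 27025 RefSeq windows 4.06% held TTTGCAT and 0.03% (9 windows) held the composite element. Of the 10 naive genes with a window that fell, 2 held TTTGCAT, and neither Oct4 (Pou5f1) nor Sox2 (153 and 234 CPM with DMSO, 163 and 271 CPM with JQ1, 0.17 ± 0.24) passed. A match describes letters and does not show a bound site.

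Genes of the primitive streak and early mesendoderm fell as well, although they were already at low or moderate levels in these cells. Of 14 tested 10 fell and 0 rose, with a median of -1.73, and 6 fell without JQ1 replicate 2. The T-box gene T (brachyury) was at 124 and 75.2 CPM with DMSO and 15.3 and 13.1 CPM with JQ1 (-2.81 ± 0.26). Mixl1, a homeobox gene of the streak, went from 35.6 and 22.8 to 4.78 and 5.76 CPM (-2.48 ± 0.25) and Eomes from 42.5 and 39.7 to 12.3 and 12.8 CPM (-1.71 ± 0.20). Wnt3, the ligand that starts the streak, was at 111 and 64.3 CPM with DMSO and 46.2 and 21.7 CPM with JQ1 (-1.37 ± 0.36) and lost the call in 5 alternatives, among them the fit of 4 libraries (adjusted p = 0.0725). Foxa1 (0.05 ± 0.50), Foxa2 (-0.65 ± 0.67) and Hhex (0.25 ± 0.25) did not pass. Among fibroblast growth factors, whose autocrine signal primes ES cells to leave self-renewal, Fgf8 fell from 35.8 and 27.1 to 5.91 and 5.52 CPM (-2.46 ± 0.22). The primed-state ligand Fgf5 went from 12.5 and 16.1 to 2.61 and 4.16 CPM (-2.08 ± 0.31), and Fgf4, the ligand that ES cells themselves secrete, from 35.8 and 54.3 to 17.7 and 25.1 CPM (-1.07 ± 0.19). These were the 3 of 15 genes of the FGF list that fell, against 12.8% of all genes tested. The receptor Fgfr1 (0.15 ± 0.16) did not pass.

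Retinoic acid handling moved in 1 direction. Retinoic acid is made from vitamin A, is cleared by Cyp26 enzymes and acts through nuclear receptors, and it drives ES cells out of self-renewal. Of 16 genes 6 fell and 0 rose, with a median of -0.70, and 4 of the 6 fell in every alternative. Cyp26a1, the clearing enzyme and a retinoic acid target, was at 31.0 and 24.9 CPM with DMSO and 4.04 and 4.07 CPM with JQ1 (-2.79 ± 0.27, adjusted p = 2.59e-05). The JQ1 libraries were nearly equal and far below the others. Dhrs3, which turns retinal back into retinol, went from 3.42 and 4.09 to 0.521 and 0.871 CPM (-2.43 ± 0.45). The retinol transporter gene Stra6 was low, at 1.20 and 0.972 CPM with DMSO and 0.217 and 0.0968 CPM with JQ1 (-2.75 ± 0.58). The receptor Rarg fell by 0.72 ± 0.15, from 75.7 and 70.0 to 42.0 and 46.5 CPM, while Rara (-0.18 ± 0.13) and Rxra (-0.29 ± 0.15) did not pass. Rdh10, which makes retinal, was -0.69 ± 0.25 and did not pass, except with the replicate block (adjusted p = 0.00201).

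In the Hedgehog pathway the effectors Gli1 and Gli2 and the target Hhip fell and the inhibitor Sufu rose. Hedgehog ligands relieve Patched inhibition of Smo, which frees Gli factors from Sufu. Of 12 genes tested 5 fell and 2 rose, with a median of -0.19, and 4 rose without JQ1 replicate 2. Gli1, both effector and target, was at 23.6 and 35.4 CPM with DMSO and 4.69 and 8.23 CPM with JQ1 (-2.19 ± 0.35). Gli2 went from 27.5 and 29.5 to 8.38 and 5.76 CPM (adjusted p = 2.17e-05) and the decoy receptor gene Hhip from 1.51 and 1.84 to 0.347 and 0.290 CPM (-2.35 ± 0.38). For these 3 genes the treatments did not overlap. Ptch1 was -1.08 ± 0.32 and lost its call in 5 alternatives, among them the fit of 4 libraries (adjusted p = 0.098). Sufu rose from 40.9 and 33.4 to 67.5 and 53.8 CPM (0.70 ± 0.13), and Smo, which lost its call in the fit of 4 libraries and without either DMSO replicate, was 0.43 ± 0.10. Gli3 was 0.70 ± 0.32 and did not pass, except with the replicate block (adjusted p = 0.00298). The ligand gene Shh had too few counts to test (0.0407 and 0.0512 CPM with DMSO), and Ihh (-0.20 ± 0.55) did not pass.

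Notch genes split. Notch4 fell from 11.3 and 16.3 to 0.999 and 0.920 CPM (-3.82 ± 0.24, adjusted p = 2.08e-06), the divergent ligand gene Dll3 from 21.7 and 30.8 to 5.21 and 9.92 CPM (-1.79 ± 0.27) and Notch3 from 207 and 195 to 113 and 88.5 CPM (adjusted p = 0.000654). Notch1 (-0.26 ± 0.15) and Notch2 (0.33 ± 0.29) did not pass. Among 15 genes tested 4 fell and 2 rose, against 12.8% and 8.64% of all genes tested. Neither rise, of Lfng and Maml1, held in the fit of 4 libraries. In the BMP list the antagonist Grem1 fell from 10.8 and 12.8 to 2.61 and 2.42 CPM (-2.23 ± 0.28), while Id1, a direct BMP target that blocks differentiation factors, rose from 90.9 and 64.5 to 150.3 and 146 CPM (0.93 ± 0.17). Id2 (-0.13 ± 0.21), Id3 (0.15 ± 0.18) and Bmp4 (-0.21 ± 0.13) did not pass. Along the LIF axis the kinase genes Pim1, from 109 and 94.0 to 183 and 165 CPM (0.78 ± 0.11), and Pim3 (0.67 ± 0.12), which STAT3 induces, rose, and Lif itself, from 13.7 and 11.9 to 7.12 and 4.89 CPM (-1.09 ± 0.21), and Bcl3 (-0.82 ± 0.17) fell. Stat3 (-0.14 ± 0.11), Socs3 (0.18 ± 0.13) and Il6st (-0.04 ± 0.21), the shared receptor subunit, did not pass. Of the 14 genes of this list 4 rose and 3 fell, and 2 of each direction held in every alternative, with 2 rising in the fit of 4 libraries, without DMSO replicate 2 and without JQ1 replicate 1.

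Many antiviral and antigen-processing genes fell with JQ1. Interferon signalling induces these genes through STAT and IRF factors, and ES cells are known to respond weakly to interferon. Of 26 genes tested 14 fell and 3 rose, with a median of -1.29, and 10 fell in every alternative. Ifitm3 (ENSMUSG00000025492.6, chromosome 7, 141009586 to 141010770), a membrane protein that restricts virus entry, was at 167 and 170.2 CPM with DMSO and 18.5 and 22.7 CPM with JQ1 (-3.03 ± 0.15, adjusted p = 2.62e-07). Ifitm1 went from 145 and 192 to 22.2 and 33.8 CPM (-2.59 ± 0.24) and Oasl2 from 10.9 and 7.78 to 0.565 and 0.871 CPM (-3.71 ± 0.46). The peptide transporter genes Tap1 and Tap2 went from 25.9 and 22.8 to 8.60 and 8.37 CPM (-1.52 ± 0.22) and from 23.6 and 21.1 to 4.26 and 4.26 CPM (-2.39 ± 0.29). For all 5 genes both JQ1 libraries lay far below both DMSO libraries.

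The immunoproteasome subunit genes Psmb8 and Psmb10 fell by 2.83 ± 0.41 and 1.46 ± 0.21, and Psmb9 (-0.14 ± 0.47) did not pass. The transcription factor Irf1 went from 76.8 and 56.1 to 27.4 and 30.3 CPM (-1.21 ± 0.19), Ddx58, the RNA sensor RIG-I, from 26.2 and 28.1 to 12.9 and 12.4 CPM (-1.10 ± 0.15), and Ifi35 fell by 2.60 ± 0.31. Stat2 (0.23 ± 0.15), Irf9 (-0.21 ± 0.15) and B2m (-0.20 ± 0.18) did not pass. The class I heavy chain genes H2-K1 (0.52 ± 0.14) and H2-D1 (0.56 ± 0.14) were higher, but both lost the call without DMSO replicate 2 or JQ1 replicate 1 and they are similar enough in sequence to share reads. Irf7, Ifit3 and Rsad2 had too few counts to test. Of the 25 members with a RefSeq promoter window, 8 held the interferon response letters, searched as GAAA, any 2 bases and GAAA on either strand, against 3.06% of all windows, and these were 2 of 12 that fell, 0 of 3 that rose and 6 of 10 that did not pass. The summed fibroblast markers also fell, from 890.1 and 875 to 377 and 369 CPM, and their part in this result was not tested.

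**Figure D3:**
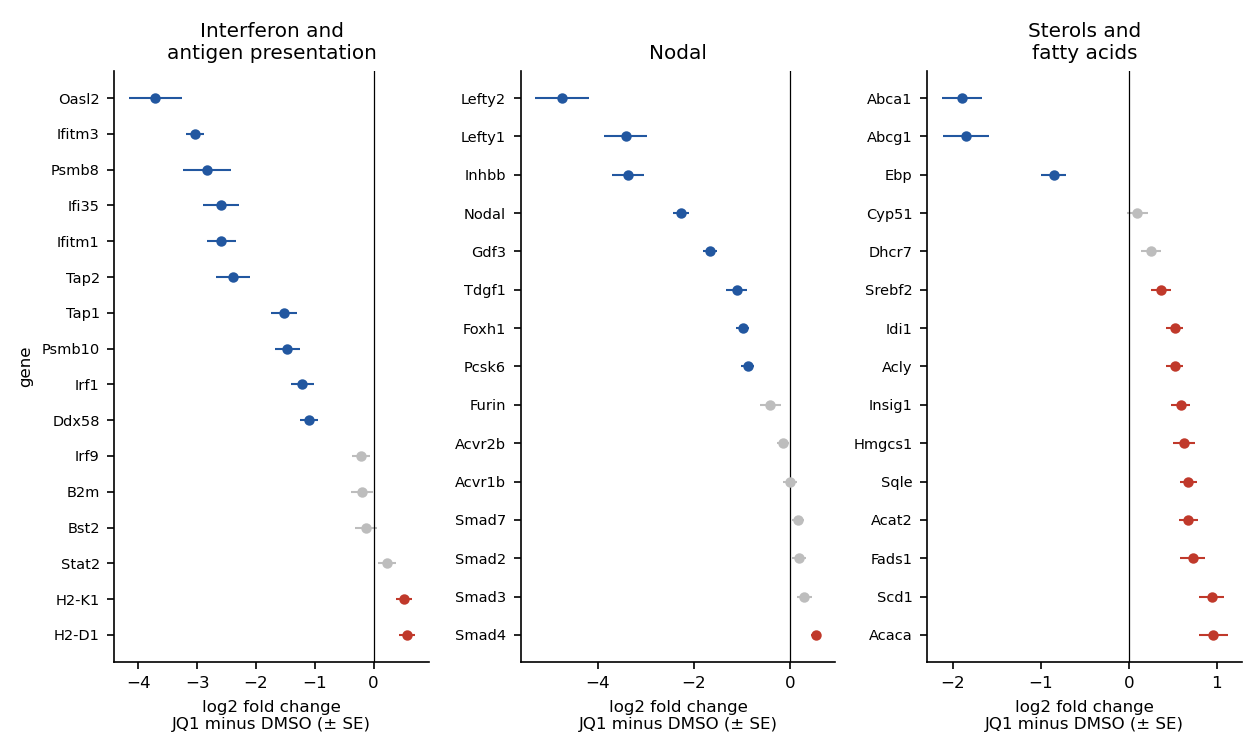
Log2 fold change, JQ1 minus DMSO, with its standard error (horizontal bars) for genes of 3 groups. Blue genes fell, red genes rose and grey genes did not pass. In the interferon panel the falls run from -3.71 (Oasl2) to -1.10 (Ddx58) while Irf9 and B2m sit near 0, in the Nodal panel ligands and targets lie left of 0 and receptors and Smads near it, and in the lipid panel Ebp and the exporters Abca1 and Abcg1 lie left and the other called genes right.

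Several genes of fatty acid synthesis rose and 2 genes of cholesterol efflux fell. In the list of fatty acid synthesis and cholesterol export 8 of 16 genes rose and 2 fell, with a median of 0.45, and 5 rose in the fit of 4 libraries and without JQ1 replicate 1. Acaca, the acetyl-CoA carboxylase that makes malonyl-CoA, was at 74.7 and 73.1 CPM with DMSO and 165 and 123 CPM with JQ1 (0.96 ± 0.16). The desaturase genes Scd1 and Fads1 went from 48.4 and 58.1 to 106 and 98.2 CPM (0.94 ± 0.14) and from 50.8 and 66.3 to 101 and 91.7 CPM (0.73 ± 0.14), and Acly, which supplies cytosolic acetyl-CoA, rose by 0.52 ± 0.10. Fasn was 0.61 ± 0.15 and lost its call in the fit of 4 libraries (adjusted p = 0.0555) and on leaving out either DMSO replicate 2 or JQ1 replicate 1. The cholesterol exporter genes Abca1 and Abcg1 fell, from 18.9 and 29.0 to 6.56 and 6.15 CPM (-1.90 ± 0.23) and from 8.96 and 15.9 to 2.69 and 4.11 CPM (-1.85 ± 0.26). Both are targets of the LXR receptors, whose genes Nr1h2 (-0.12 ± 0.10) and Nr1h3 (-0.93 ± 0.48) did not pass. Elovl6 (0.02 ± 0.10) and Apoe (-0.15 ± 0.15) did not pass either.

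Of 26 genes of cholesterol synthesis and its SREBP2 regulation 13 rose and 2 fell, with a median of 0.38. The number that rose was 6 in the fit of 4 libraries, 8 without DMSO replicate 1 and 7 without DMSO replicate 2, and 5 rose in every alternative. These 5 were Hmgcs1, the first committed synthase, at 172 and 144 CPM with DMSO and 273 and 217 CPM with JQ1 (0.63 ± 0.13), the squalene epoxidase gene Sqle (0.68 ± 0.10), Insig1, the sterol sensor that retains SREBP, at 34.5 and 39.6 CPM with DMSO and 57.3 and 54.1 CPM with JQ1 (0.59 ± 0.11), Idi1 (0.52 ± 0.09) and Acat2 (0.68 ± 0.11). Cyp51 (0.10 ± 0.12) did not pass. Ebp, a sterol isomerase gene, fell from 39.4 and 39.8 to 23.5 and 20.3 CPM (-0.85 ± 0.14).

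Promoter windows of 3 genes of this group are shown because the genes rose in every alternative and the windows carry the CCAAT box of NF-Y, a factor known to act beside SREBP. They lie at chr13:119690101-119690350 (Hmgcs1), chr5:28071162-28071411 (Insig1) and chr13:8885356-8885605 (Idi1), all on the plus strand of GRCm38.p6, 250 bases up to the start site. Capitals mark CCAAT boxes, which here read ATTGG because they lie on the opposite strand, and the sterol element TCACCCCAC of Hmgcs1 (searched as TCACNCCAC).
Hmgcs1: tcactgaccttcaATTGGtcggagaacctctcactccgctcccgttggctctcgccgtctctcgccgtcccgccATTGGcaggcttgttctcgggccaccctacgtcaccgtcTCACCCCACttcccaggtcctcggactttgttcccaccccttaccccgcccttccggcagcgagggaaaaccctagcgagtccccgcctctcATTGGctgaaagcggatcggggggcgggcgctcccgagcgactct
Insig1: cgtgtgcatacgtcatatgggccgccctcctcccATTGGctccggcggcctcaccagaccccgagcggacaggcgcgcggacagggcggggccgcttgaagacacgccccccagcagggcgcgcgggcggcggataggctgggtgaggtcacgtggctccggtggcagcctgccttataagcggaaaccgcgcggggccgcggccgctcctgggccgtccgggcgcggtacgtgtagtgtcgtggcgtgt
Idi1: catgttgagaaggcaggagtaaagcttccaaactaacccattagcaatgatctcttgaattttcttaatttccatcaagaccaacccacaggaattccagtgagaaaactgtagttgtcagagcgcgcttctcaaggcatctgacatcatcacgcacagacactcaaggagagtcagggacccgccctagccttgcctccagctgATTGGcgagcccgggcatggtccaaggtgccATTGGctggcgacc
Of 18 list members with a window, 16 (88.9%) held CCAAT on either strand against 34.33% of all windows. The share did not separate genes by response, since 9 of 10 that rose, 1 of 1 that fell and 6 of 7 that did not pass held it. The sterol letters TCACNCCAC were found in 1 of the 18, Hmgcs1, against 1.03% of all windows.

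Among the genes of the BET proteins themselves, Brd2 rose from 289.8 and 259 to 553 and 488 CPM (0.92 ± 0.10, adjusted p = 6.65e-05), whereas Brd3 (0.11 ± 0.12) did not pass. Of 22 genes of BET proteins and of the elongation machinery around P-TEFb, 2 rose and 0 fell, near the 8.64% background, and 4 rose with the replicate block. The second was Hexim1, the inhibitor of P-TEFb, at 72.4 and 68.2 CPM with DMSO and 88.5 and 87.6 CPM with JQ1 (0.32 ± 0.10), which lost its call without any 1 of the 4 libraries, after thinning to the shallowest library and in the fit of 4 libraries (adjusted p = 0.148). Cdk9 (-0.10 ± 0.11), the P-TEFb kinase gene, did not pass.

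Some genes of replacement histones, which are made outside S phase, rose. H1f0, a linker histone of slowly dividing and differentiating cells, rose from 38.3 and 37.7 to 109 and 149 CPM (1.77 ± 0.17, adjusted p = 2.49e-05), and the linker histone gene H1fx from 19.4 and 22.9 to 52.7 and 83.2 CPM (1.69 ± 0.18). H3f3b, 1 of the 2 genes of histone H3.3, rose from 481 and 436 to 993 and 1118 CPM (1.20 ± 0.14), and the other, H3f3a, did not pass (0.34 ± 0.16). The macroH2A gene H2afy2 rose by 0.84 ± 0.18. H2afz (0.15 ± 0.15) and the centromeric Cenpa (-0.26 ± 0.11) did not pass. In all, 3 of 6 linker histone genes and 3 of 10 variant genes rose and 0 fell. The third linker gene, the cluster gene Hist1h1c (0.66 ± 0.20), lost its call in 5 alternatives, and the third variant gene, H2afx (0.67 ± 0.15), without DMSO replicate 2. Among chromatin regulators Tet1, a dioxygenase that oxidises methylcytosine, fell from 236 and 359 to 131 and 108 CPM (-1.32 ± 0.24) and Zfp57, which protects imprints, from 139.8 and 146 to 74.7 and 78.9 CPM (-0.90 ± 0.10). The de novo methyltransferase gene Dnmt3b rose from 462 and 564 to 780.4 and 964 CPM (0.77 ± 0.13), and Dnmt3a (-0.36 ± 0.22) did not pass in the fit of all libraries but did with the replicate block (adjusted p = 0.0199). In the Polycomb list 6 of 25 genes rose and 2 fell, against 8.64% and 12.8% of all genes tested. Cbx2 (0.81 ± 0.11) and Pcgf5 (0.78 ± 0.13) rose and Bcor (-0.91 ± 0.15) fell, and the number that rose was 2 in the fit of 4 libraries and 3 without DMSO replicate 1.

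Of the genes around PI3 kinase and FoxO, 4 rose in every alternative. Txnip (ENSMUSG00000038393.14, chromosome 3, 96557957 to 96561883), an arrestin that restrains glucose uptake and binds thioredoxin, went from 65.8 and 69.2 to 215 and 208 CPM (1.65 ± 0.12, adjusted p = 3.79e-06), with nearly equal replicates. Its relative Arrdc4 rose from 25.1 and 29.0 to 52.6 and 51.2 CPM (0.95 ± 0.12), Sesn3, a sestrin that dampens mTORC1, from 36.4 and 45.8 to 109 and 95.6 CPM (1.32 ± 0.19), and Pik3r1, the regulatory subunit of PI3 kinase, from 14.4 and 14.2 to 35.1 and 30.3 CPM (1.19 ± 0.14). These were 4 of the 5 of 21 genes of the list that rose, and 0 fell. Foxo1 (0.19 ± 0.14), Foxo3 (0.18 ± 0.15) and Akt1 (-0.13 ± 0.15) did not pass.

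Of 27 immediate-early and feedback genes of ERK signalling, 5 rose and 1 fell, against 8.64% and 12.8% of all genes tested. Egr1 rose from 21.1 and 18.6 to 67.5 and 71.2 CPM (1.80 ± 0.28) and Ier2 from 49.7 and 44.4 to 83.6 and 86.8 CPM (0.85 ± 0.11), while Fos (-0.03 ± 0.31) and Etv5 (-0.05 ± 0.12) did not pass. The number that rose ran from 2 without DMSO replicate 2 to 9 without DMSO replicate 1, and it was 9 as well with the replicate block and with no filter on low counts. Dusp6 (0.73 ± 0.25) and Dusp4 (0.64 ± 0.27), phosphatases that ERK induces, did not pass, except with the replicate block (adjusted p = 0.0011 and 0.000538) and, for Dusp6, in the fit of 4 libraries (adjusted p = 0.0426). Bcl2l11, the proapoptotic BIM, rose from 45.6 and 35.5 to 98.5 and 84.3 CPM (1.17 ± 0.15). Cdkn2c, an inhibitor of Cdk4 and Cdk6, was low and rose from 0.244 and 0.256 to 1.56 and 1.21 CPM (2.46 ± 0.38). Of 20 G2/M genes 1 rose and 0 fell, and the rise, of Aurkb (0.33 ± 0.11), lost its call in 9 alternatives, among them the fit of 4 libraries (adjusted p = 0.182). Myc (0.33 ± 0.14), a transcript lowered by JQ1 in many blood cancers, was at 84.2 and 67.5 CPM with DMSO and 95.0 and 96.6 CPM with JQ1 and did not pass, except with the replicate block (adjusted p = 0.0304, higher), whereas Mycl fell by 0.94 ± 0.17.

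Of 20 genes of endoplasmic reticulum and heat shock chaperones and their regulators 5 fell and 2 rose, and 4 of the falls held in every alternative. Xbp1, a transcription factor of the unfolded protein response, went from 35.5 and 36.6 to 16.9 and 22.3 CPM (-0.88 ± 0.14), the disulfide isomerase genes Pdia6 and Pdia4 from 573 and 578 to 346 and 319.9 CPM (-0.79 ± 0.10) and from 347 and 369 to 258 and 228 CPM (-0.56 ± 0.10), and Hsp90b1, the chaperone GRP94, from 1652 and 1766 to 1205 and 1069 CPM (-0.59 ± 0.10). Calr was -0.44 ± 0.12 and lost its call in the fit of 4 libraries (adjusted p = 0.133) and in 3 others. Hspa5 (-0.29 ± 0.12), the chaperone BiP, did not pass, except with the replicate block (adjusted p = 0.0421). Canx (-0.34 ± 0.11) and Herpud1 (-0.48 ± 0.16) missed the threshold here but passed with the block (adjusted p = 0.0343 and 0.0115), and Dnajb9 (-0.33 ± 0.16) did not pass. Hsp90aa1 (0.28 ± 0.14), Hspa8 (0.17 ± 0.11) and Hspd1 (0.17 ± 0.09) did not pass. The heat shock genes Hspa1a (0.85 ± 0.26) and Hspa1b (0.93 ± 0.22) rose, but neither call held throughout. Hspa1a lost its call without any 1 of the 4 libraries and after thinning to the shallowest library. Hspa1b lost its call without DMSO replicate 2 or JQ1 replicate 1. They are near-identical copies, so their separate values are uncertain. With the replicate block 8 fell. Among 30 genes of lysosomes and autophagy 6 fell and 0 rose, 3 fell without DMSO replicate 2, and 3 rose with the replicate block. The shares over all genes tested were 12.8% fallen and 8.64% risen. Hexa, a lysosomal hexosaminidase subunit gene, was at 52.9 and 66.7 CPM with DMSO and 15.3 and 21.3 CPM with JQ1 (-1.70 ± 0.16), and Tfeb, a regulator of lysosomal genes, at 15.7 and 16.6 CPM with DMSO and 5.73 and 4.94 CPM with JQ1 (-1.59 ± 0.19).

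Of 20 p53 targets 8 fell and 1 rose. The count that fell was 4 in the fit of 4 libraries, 4 without DMSO replicate 1 and 15 with the replicate block. Cdkn1a, the inhibitor p21, went from 94.6 and 65.8 to 46.0 and 31.5 CPM (-1.05 ± 0.22) and the receptor gene Eda2r from 92.2 and 80.0 to 48.9 and 32.9 CPM (-1.07 ± 0.18), and Fas (-2.55 ± 0.54) and Ei24 (-0.70 ± 0.12) also fell. Trp53 itself (-0.17 ± 0.11) did not pass. In the second library of both treatments Cdkn1a was lower than in the first, so the same-numbered libraries moved together.

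Transcripts of the 2-cell-like state, which a rare fraction of ES cells in serum expresses, were at or near 0 with JQ1. Of 10 genes tested 9 fell and 0 rose, 8 of them in every alternative. Zscan4c was at 7.88 and 4.09 CPM with DMSO and had no counts in either JQ1 library, which makes it at least 43.1-fold lower when a floor of 3 counts per library is used. Zscan4f had 11.6 and 5.27 CPM with DMSO and 3 and 2 counts with JQ1. These genes are near-identical copies, so counts assigned to any single copy are uncertain. Over all genes tested, 215 had counts with DMSO and none in both JQ1 libraries, and 98 of these passed, whereas 7 had none in both DMSO libraries and 0 of these passed. The first DMSO library was the deepest of the 4, which favours detection of rare transcripts there. Moreover, a gene with no counts in 1 treatment was tested only if other libraries carried it past the count filter. The numbers of such genes, the 2-cell-like genes among them, therefore depend on depth and on the filter, and the part of each was not tested. In the germline list 7 of 21 genes fell and 0 rose, 4 of them without DMSO replicate 2. Hormad1, a meiotic chromosome axis gene, went from 2.04 and 3.07 to 0.478 and 0.629 CPM (-2.15 ± 0.36) and the piRNA pathway genes Mov10l1 and Piwil2 fell by 1.57 ± 0.25 and 1.30 ± 0.27. Dazl (0.56 ± 0.23) and Ddx4 (0.10 ± 0.16) did not pass.

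Many extracellular matrix genes fell, together with the feeder markers. Of 39 collagen genes tested 19 fell and 1 rose, with a median of -1.18, and 11 fell in every alternative. Col3a1 was at 43.9 and 41.3 CPM with DMSO and 10.9 and 5.47 CPM with JQ1 (-2.37 ± 0.36), Col5a2 at 108 and 124 CPM with DMSO and 43.5 and 40.3 CPM with JQ1 (-1.47 ± 0.18), and Col1a1 at 518 and 482 CPM with DMSO and 206 and 211 CPM with JQ1 (-1.26 ± 0.24). The basement membrane genes Col4a1 (0.24 ± 0.29), Col4a2 (0.21 ± 0.29), Lamb1 (-0.24 ± 0.18) and Lamc1 (-0.24 ± 0.20) did not pass, whereas Col18a1 fell from 762 and 930.2 to 565 and 511 CPM (-0.65 ± 0.12). Outside the collagens 9 of 25 matrix genes fell and 1 rose. Elastin (Eln) went from 7.43 and 5.94 to 0.999 and 1.11 CPM (-2.66 ± 0.32), Mmp9 from 20.9 and 13.7 to 3.95 and 2.71 CPM (-2.38 ± 0.28) and the basement membrane linker gene Nid1 from 153 and 175 to 101 and 69.8 CPM (-0.94 ± 0.19). Mmp2 (-1.69 ± 0.22) fell too, as did tenascin (Tnc) from 139 and 164 to 58.5 and 47.3 CPM (-1.52 ± 0.21). Of 20 serpins 12 fell and 0 rose, with 7 falling where 1 CPM in 4 libraries was required. The fibroblast markers Postn, from 6.44 and 8.90 to 1.26 and 1.26 CPM (-2.59 ± 0.36), Pdgfrb, from 29.6 and 24.1 to 9.64 and 6.82 CPM (-1.71 ± 0.22), and Prrx1, from 8.66 and 11.2 to 3.08 and 3.58 CPM (-1.56 ± 0.26), fell as well. Of the defining markers, Dcn was at 4.50 and 1.84 CPM with DMSO and 1.22 and 0.387 CPM with JQ1, and Lum at 0.876 and 0.205 CPM with DMSO and 0.174 and 0.0484 CPM with JQ1. The part of the fibroblast markers in the matrix result was not tested.

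**Figure D4:**
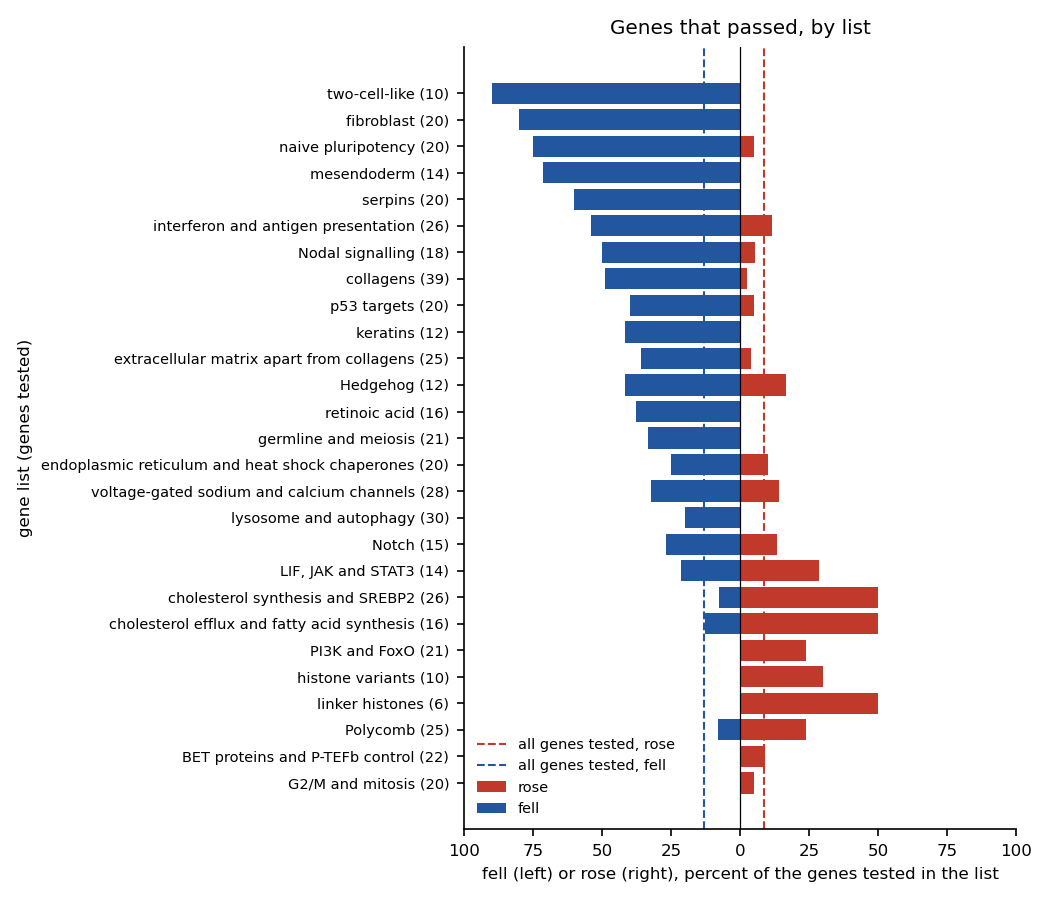
Share of the tested genes of each list that fell (blue bars, to the left) or rose (red bars, to the right), in percent, with the number tested in brackets. Dashed lines give the shares over all genes tested, 12.8% fallen and 8.64% risen. Two-cell-like, fibroblast, naive and mesendoderm lists reach furthest left, both lipid lists and the linker histones reach 50% on the right, and the bars of the BET and G2/M lists end near or below the dashed line.

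Among the 15 deepest falls of genes with a mean of at least 5 CPM in a group were Gad1, which makes GABA, at 5.93 and 8.70 CPM with DMSO and 0.0434 and 0.0968 CPM with JQ1 (-6.61 ± 0.49), the dipeptidyl peptidase gene Dpp4 at 9.49 and 13.4 CPM with DMSO and 0.347 and 0.242 CPM with JQ1 (-5.22 ± 0.27), and the adhesion gene Ceacam1 at 4.64 and 10.4 CPM with DMSO and 0.130 and 0.194 CPM with JQ1 (-5.46 ± 0.52). The keratin genes Krt42 (-5.62 ± 0.55) and Krt17 (-4.37 ± 0.46), the synaptotagmin gene Syt4 (-5.23 ± 0.59), the phosphatase gene Ptprv (-5.17 ± 0.40), the aminopeptidase gene Xpnpep2 (-4.76 ± 0.46), the proton pump subunit gene Atp6v0a4 (-4.90 ± 0.67) and the carboxypeptidase gene Cpz (-4.14 ± 0.45) were others. By contrast the abundant simple keratins Krt8 (-0.42 ± 0.38) and Krt18 (-0.31 ± 0.34) did not follow. Krt8 was at 1056 and 495 CPM with DMSO and 771 and 387 CPM with JQ1, and Krt18 at 628 and 323 CPM with DMSO and 509.8 and 259.9 CPM with JQ1. They did not pass except with the replicate block (adjusted p = 0.00531 and 0.0384), and in both treatments the first library was the higher.

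Among abundant genes Trh, the precursor of thyrotropin-releasing hormone, went from 356 and 576 to 45.6 and 62.7 CPM (-3.11 ± 0.48), Igfbp3, which binds insulin-like growth factors, from 761 and 482 to 135 and 91.7 CPM (-2.46 ± 0.21), and Spp1, the secreted osteopontin, from 282 and 456 to 99.3 and 143 CPM (-1.60 ± 0.23). The kinase gene Sgk1 went from 175 and 213 to 56.5 and 42.4 CPM (-1.97 ± 0.15) and the protease gene Prss23 from 164 and 134 to 61.9 and 47.1 CPM (-1.45 ± 0.26). Replicates of Trh and Spp1 were higher in the second library of both treatments and those of Igfbp3 in the first. The treatments did not overlap in any of them, which was a condition for naming genes outside the lists.

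The largest rises were smaller. Wnk2, a kinase gene, went from 4.83 and 5.01 to 17.9 and 18.3 CPM (1.88 ± 0.21), the transcription factor gene Onecut2 from 2.65 and 2.66 to 8.90 and 8.66 CPM (1.73 ± 0.26), Gch1, which starts tetrahydrobiopterin synthesis, from 2.34 and 2.25 to 5.69 and 9.20 CPM (1.69 ± 0.31) and the receptor kinase gene Ret from 2.91 and 3.07 to 8.30 and 9.29 CPM (1.56 ± 0.28). The protease gene Prss16 (1.69 ± 0.25), Rundc3b (1.62 ± 0.26), the Cdk5 activator Cdk5r1 (1.51 ± 0.29), the ubiquitin ligase gene Rnf157 (1.48 ± 0.24), the atypical kinase gene Mapk4 (1.48 ± 0.15) and the nucleotidase gene Entpd5 (1.45 ± 0.18) were others, and Tc2n (1.53 ± 0.36) lost its call without DMSO replicate 2 or JQ1 replicate 1. Among abundant genes Cd24a, a surface glycoprotein, rose from 84.5 and 82.8 to 186 and 215 CPM (1.26 ± 0.11), Mknk2, a kinase of the cap-binding factor eIF4E, from 71.6 and 61.8 to 156 and 143 CPM (1.16 ± 0.11), Slc25a4, the mitochondrial ADP/ATP carrier, from 231 and 187 to 381 and 441 CPM (0.98 ± 0.15) and the tight junction gene Cldn6 from 304 and 287 to 543 and 535 CPM (0.87 ± 0.12). The 10 largest rises in mean CPM also held Odc1, the rate-limiting enzyme of polyamine synthesis, from 550.3 and 501 to 796 and 893 CPM (0.68 ± 0.10), Igf2bp1 (0.63 ± 0.11) and G3bp2 (0.72 ± 0.12), both RNA-binding protein genes, Hmga1b (0.85 ± 0.11) and the ferritin copies Ftl1-ps1 (0.83 ± 0.14) and Ftl2-ps (0.83 ± 0.14). The last 3 have near-identical copies and their assignment is uncertain.

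The mitochondrially encoded genes and the genes of abundant housekeeping machines gave results that depended on single libraries. For comparison, 12.8% of all genes tested fell and 8.64% rose. Of 15 mitochondrially encoded genes 11 fell and 0 rose, but 2 fell without DMSO replicate 2 and 5 without JQ1 replicate 1 or in the fit of 4 libraries. The cytochrome oxidase subunit mt-Co3 fell in every alternative that tested it, from 4399 and 5566 to 2661 and 3035 CPM (-0.81 ± 0.14). Of 90 nuclear genes of the respiratory chain 15 fell and 0 rose, with 0 falling without JQ1 replicate 1, 24 without JQ1 replicate 2, 1 without DMSO replicate 2, 6 without DMSO replicate 1, 3 in the fit of 4 libraries and 25 with the replicate block. Of 83 ribosomal protein genes 7 fell and 1 rose, below the background share for falls, and the number that fell ran from 1 without DMSO replicate 2 or JQ1 replicate 1 to 30 without JQ1 replicate 2.

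Falls were more frequent among genes of low mean level and rises among genes of high level. The genes were ranked by mean level over the 4 libraries compared and cut into 5 equal bins. In the lowest bin 514 of 3398 fell (15.13%) and 27 rose (0.79%), and in the highest 220 of 3398 fell (6.47%) and 518 rose (15.24%). The second lowest bin had the most falls, 692 of 3397 (20.37%). The count filter keeps a gene that reaches its limit in as few as 2 libraries. A gene of low mean could thus be tested because of the group where it was high, so the shares in the low bins depend on the filter. Over all genes tested 12.85% fell and 8.64% rose. Of 784 long noncoding genes 103 fell (13.14%) and 6 rose (0.77%), and of 14453 protein-coding genes 1949 fell (13.49%) and 1435 rose (9.93%). The share that fell was thus near that of all genes in both classes, and the long noncoding genes differed in how few rose. Among protein-coding genes those with the shortest mean transcripts rose in 120 of 2891 cases (4.15%) and those with the longest in 428 of 2891 (14.8%). Falls numbered 401 (13.87%) and 331 (11.45%). Level, class and length are related to each other and to the power of the test, and their separate parts were not tested.

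The same contrast was read in the other settings, which share no library with this one. Of the 1467 genes that rose here, 723 (49.3%) rose in 2iL, where 4833 genes passed (28.5%) and 1888 rose (11.1%). In the knockout, where 5825 passed (34.3%) and 2498 rose (14.7%), 729 (49.7%) rose. Of the 2182 that fell, 1171 (53.7%) fell in 2iL, where 2945 fell (17.3%), and 1290 (59.1%) fell in the knockout, where 3327 fell (19.6%). Seen from the other side, the shared rises were 38.3% of those in 2iL and 29.2% of those in the knockout, and the shared falls 39.8% and 38.8%. The response itself differed for 723 genes between 2iL and serum (4.26%; 1.37% higher and 2.89% lower in 2iL) and for 763 between the knockout and unmodified cells (4.49%). With the replicate block these counts were 1572 and 2234. The count for 2iL was 439 in the fit of the 8 libraries concerned. Leaving out DMSO replicate 1 gave 363 genes for the knockout, leaving out JQ1 replicate 1 gave 415 and leaving out JQ1 replicate 2 gave 1790. Both differences share the 4 serum libraries.

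Nr5a2 and Nanog fell here. In 2iL both JQ1 libraries lay above both DMSO libraries for each gene, but neither response passed there (adjusted p = 0.285 for Nr5a2 and 0.238 for Nanog). Nr5a2 was at 92 and 108.0 CPM with DMSO and 118 and 117 CPM with JQ1 in 2iL, so its response was 0.23 ± 0.16 there and the difference 3.15 ± 0.24 (adjusted p = 2.16e-05). Nanog was at 846 and 756 CPM with DMSO and 908 and 969 CPM with JQ1 in 2iL (0.23 ± 0.14), a difference of 1.83 ± 0.20 (adjusted p = 0.000408), and at 339.7 and 372 CPM and 357 and 345 CPM in the knockout (-0.02 ± 0.14). Nr5a2, unlike Nanog, was lower with JQ1 in the knockout (-0.98 ± 0.16, adjusted p = 0.000509). Nr0b1 (-1.20 ± 0.26) and Fbxo15 (-1.57 ± 0.27) also passed lower there. Klf2 (-0.01 ± 0.16) and Klf4 (0.03 ± 0.14) did not pass there, and Tdh passed higher (0.78 ± 0.18). Of the 20 naive genes the response differed in 2iL for 12, all higher there than in serum, against 1.37% of all genes. In the opposite direction Epcam, an adhesion gene, rose here and was -1.44 ± 0.12 in 2iL (difference -1.97 ± 0.16), and Cacng7, a calcium channel subunit gene, was -2.18 ± 0.20 (difference -3.29 ± 0.26). Chd3, a chromatin remodeller gene, fell here from 41.0 and 35.4 to 20.7 and 18.2 CPM (-0.97 ± 0.17) and was 1.62 ± 0.17 in 2iL.

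Cldn6 rose in unmodified serum cells and was -0.64 ± 0.12 in the knockout, from 40.2 and 43.5 CPM with DMSO to 27.7 and 26.0 CPM with JQ1 (difference -1.50 ± 0.17, adjusted p = 0.000609). Nectin1, another adhesion gene, rose here from 36.3 and 41.1 to 80.6 and 70.8 CPM (0.97 ± 0.13) and was -1.07 ± 0.14 in the knockout, and Notum, a secreted Wnt inhibitor and Wnt target, fell from 24.1 and 37.6 to 2.91 and 1.98 CPM (-3.63 ± 0.25) here and was -0.81 ± 0.21 there. Among lists, the knockout response was lower than that of unmodified cells for 6 of 10 claudins, 8 of 26 cholesterol genes, 7 of 16 fatty acid and efflux genes and 5 of 14 LIF pathway genes, against 3.19% of all genes. For Nodal signalling 8 of 18 genes fell in 2iL and 11 in the knockout, and the difference passed for 2 and 1 of them. For the interferon list 13 of 26 fell in each of the other settings, and the difference passed for 4 in 2iL and 2 in the knockout. The PI3K and FoxO genes rose in 13 of 21 cases in 2iL and 6 in the knockout, with 0 differences in either. With the replicate block the difference passed for 3 of them in 2iL and 2 in the knockout, for 5 and 6 Nodal genes, for 6 and 6 interferon genes, and for 13 cholesterol genes in the knockout. Txnip was 1.35 ± 0.12 in 2iL and 1.26 ± 0.12 in the knockout.

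**Figure D5:**
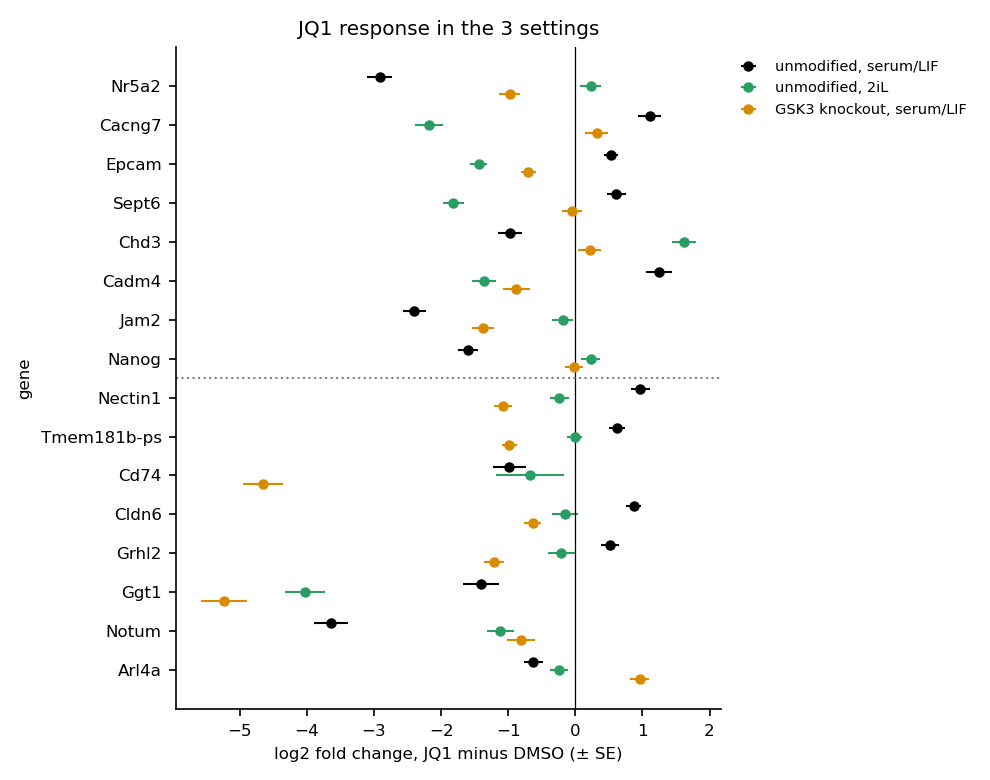
Log2 fold change, JQ1 minus DMSO, with its standard error in unmodified cells in serum/LIF (black), unmodified cells in 2iL (green) and GSK3 knockout cells in serum/LIF (orange). Genes above the dotted line are the 8 with the smallest adjusted p for the difference between 2iL and serum, and those below it the 8 for the difference between knockout and unmodified cells. Nanog and Nr5a2 lie left of 0 in black and just right of it in green, and Nectin1, Cldn6 and Grhl2 lie right of 0 in black and left of it in orange.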

How the data were processed

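RNA was isolated with TRIzol and poly(A) libraries were read as pairs on a NovaSeq instrument, per the labels' protocols. Gene-level expected counts were deposited by the authors in 1 table per library together with TPM values, and per the submitters' processing notes the tools were bcl2fastq, STAR 2.5.2, RSEM and DESeq2 1.18.1 with mm10. The annotation release and strand setting are not given in the sources used here. Expected counts, of which 6.11% to 8.71% per library were not whole, were rounded. The TPM values of the authors were read but support no test. Of 52550 gene identifiers 99.72% were matched to GENCODE names without their version number.

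All 12 libraries (17869865 to 48723436 counts) were fitted in 1 model with edgeR 4.0.16 (R 4.3.3): TMM scaling, edgeR's expression filter, robust quasi-likelihood tests and Benjamini-Hochberg adjustment over the 16987 genes kept, with a threshold of 0.05. All adjusted p-values come from this test unless another fit is named. Log2 fold changes are given ± SE with n = 2 per group, and differences between settings are interaction terms of the same model. CPM are rounded counts over the library totals of the genes kept, multiplied by the TMM factors (1.0048 to 1.0135 in the 4 libraries compared). A count of 3 served as the floor, and floors in CPM use the unscaled library totals. The SE was derived from the test, as the absolute log2 change over the square root of its F statistic. It includes the spread between libraries, whereas the floors cover counting error only. Where the change is near 0 this SE can be unreliable, as for Ell (0.045 in serum against 0.127 in 2iL).

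No 2 libraries were identical, and replicates differed by more than sampling noise. Same-numbered DMSO and JQ1 libraries deviated together from their group means (correlations 0.185 in serum, 0.118 in 2iL and 0.117 in the knockout). The replicate number was therefore used as a block in an alternative fit, whereas the main fit did not use it. The pairing is a reading that comes from the data and not from the labels. With correlations this low it remains uncertain.

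In data simulated for the serum comparison (3 runs, 200 changed genes of 16987) the test recovered 57.7% of genes changed by 1 and 81.7% of those changed by 2 on the log2 scale, and 6.05% of its calls were unchanged genes. The 12 alternatives were RLE scaling, DESeq2 1.42.0, no count filter, a filter of 1 CPM in 4 libraries, the 4 libraries alone, the replicate block, thinning to the shallowest library, no mitochondrially encoded genes, and leaving out each of the 4 libraries.

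Genes named outside the lists were the largest changes by fold (at least 5 CPM, and at least 100 CPM for abundant genes), by difference in CPM, and by the adjusted p of each difference between settings, among genes that passed in the fits of 12 and of 4 libraries and whose libraries did not overlap. The comparison, the lists and these rules were chosen with earlier results of these data known. Promoter windows are from RefSeq on GRCm38.p6, 1 per gene symbol. Some genes that are counted in the lists are not reported by name here.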

Additional observations from a re-analysis of the deposited data

Results flagged for a closer look

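The 16 genes below were singled out because a test of the difference itself, an interaction term in edgeR's quasi-likelihood model, found that their response to JQ1 differed between settings. Candidates were genes whose serum response passed in the fits of 12 and of 4 libraries and whose serum libraries did not overlap. Among these, the 16 were the 8 with the smallest adjusted p in each of 2 such tests. Smo, which did not meet that condition, had a smaller adjusted p for the 2iL difference (6.11e-06) than any of them. All 16 kept the call of a difference in each of the 12 alternatives. Differences are on the log2 scale, the other setting minus unmodified cells in serum and LIF.

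In 2iL the response was higher than in serum for Nr5a2 (3.15), Chd3 (2.60), Jam2 (2.21) and Nanog (1.83). Jam2, a junctional adhesion gene, was at 61.9 and 89.0 CPM with DMSO and 12.5 and 16.1 CPM with JQ1 in serum (-2.40 ± 0.17), and -0.18 ± 0.16 in 2iL. The response in 2iL was lower for Cacng7 (-3.29), Cadm4 (-2.61), Sept6 (-2.42) and Epcam (-1.97). Cadm4, a cell adhesion gene, rose in serum from 3.03 and 3.79 to 7.78 and 8.18 CPM and was -1.36 ± 0.18 in 2iL. Sept6, a septin gene, was 0.61 ± 0.14 in serum, a rise that lost its call without DMSO replicate 2.

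In the knockout the response was lower than in unmodified cells for Ggt1 (-3.83), Cd74 (-3.67), Nectin1 (-2.04), Grhl2 (-1.73), Tmem181b-ps (-1.61) and Cldn6 (-1.50), and higher for Notum (2.82) and Arl4a (1.58). Cd74, the invariant chain of MHC class II, was at 8.92 and 7.83 CPM with DMSO and 4.04 and 4.45 CPM with JQ1 in unmodified cells and -4.66 ± 0.30 in the knockout, where its DMSO libraries had 15.8 and 19.2 CPM. Its own fall in unmodified cells lost the call without DMSO replicate 1 or JQ1 replicate 1. Ggt1, a gamma-glutamyltransferase gene, went from 6.78 and 6.04 to 3.13 and 1.69 CPM in unmodified cells (-1.41 ± 0.26) and was -5.23 ± 0.34 in the knockout. Grhl2, an epithelial transcription factor gene, was 0.52 ± 0.13 in unmodified cells, a rise that lost its call without either DMSO replicate, and -1.21 ± 0.15 in the knockout. Arl4a was -0.62 ± 0.14 in unmodified cells, a fall that lost its call without DMSO replicate 2, and 0.96 ± 0.14 in the knockout. Tmem181b-ps is a pseudogene whose reads can be shared with its parent family, so its values are uncertain.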

How the results depend on the processing

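Of 423 genes from the lists and rules that passed, 0 changed sign in any of the 12 alternatives. Values that did not pass could, as for Krt18 (-0.87 to 0.26). The median log2 change of all genes tested, -0.015, was 0.001 in the fit of 4 libraries. The 3649 genes that passed in serum were 2330 in the fit of 4 libraries and 1971 to 2894 when 1 library was left out, the lowest without DMSO replicate 2. With the replicate block, which rests on pairing by number, 5044 passed, 3624 of them among the 3649. The genes whose response differed in 2iL (723) were 1374 without a count filter, 439 in the fit of the libraries concerned and 1572 with the replicate block. Those that differed in the knockout (763) were 1303 with DESeq2, 1911 without a count filter, 2234 with the replicate block and 363 to 1790 when 1 library was left out. The cause was not tested.

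Of these 423 genes the replicate block ended 4 calls, Col12a1 (adjusted p = 0.164), Fbln2 (0.0576), Jund (0.0577) and Adam23 (0.0765), and it gained 135 others. It changed no other call among the genes that passed. The fit of 4 libraries ended 123 of 420 calls, DESeq2 28 of 423, thinning 39 of 422, and leaving out 1 library 103 to 164 of 423. With 2 libraries a group, small changes and changes of low genes can be missed, and a count of 0 allows up to 0.0616 CPM in the deepest library and 0.154 CPM in the shallowest of the 4.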

Other observations

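Among gene groups not described above, 51 of 279 solute carriers (18.3%) fell and 15 (5.4%) rose, against 12.8% and 8.64% of all genes tested, and 23 and 4 of these did so in every alternative. The number that fell was 30 without DMSO replicate 2, and the number that rose ranged from 7 without DMSO replicate 1 to 23 with the replicate block. KRAB-type zinc finger genes were nearly balanced, with 26 higher and 28 lower of 354, although the number higher ranged from 11 in the fit of 4 libraries and without DMSO replicate 2 to 48 with the replicate block, and 11 were lower without DMSO replicate 2. Of 25 genes of glycolysis and the hypoxia response 3 rose and 1 fell, and none of the 3 rises held in the fit of 4 libraries. The gene that fell was Ldhb, a lactate dehydrogenase subunit gene, at 158 and 203 CPM with DMSO and 72.5 and 108 CPM with JQ1 (adjusted p = 0.00152). Ldha (0.25 ± 0.12) and Pgk1 (0.22 ± 0.10) did not pass. Of 25 Wnt pathway genes and targets 5 rose and 4 fell (1 and 2 in the fit of 4 libraries, 8 and 7 with the replicate block), with Notum the only one to keep its call in every alternative, and the target Axin2 (0.07 ± 0.29) did not pass.

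Imprinted genes mostly did not pass, with 2 of 26 higher and 4 lower, and 2 lower without either DMSO replicate or without JQ1 replicate 2. The shares over all genes tested were 8.64% higher and 12.8% lower. Usp29 went from 9.80 and 9.26 to 4.04 and 3.05 CPM (-1.42 ± 0.27) and Phlda2, which limits placental growth, from 106 and 115 to 50.9 and 62.1 CPM (-0.97 ± 0.19). Voltage-gated channel genes, low in ES cells, fell in 9 of 28 cases and rose in 4, with 3 falling without DMSO replicate 2 and 1 rising without DMSO replicate 1. Scn3a, a sodium channel gene, went from 2.85 and 3.53 to 0.347 and 0.0968 CPM (-3.76 ± 0.58). Of 14 host genes of small nucleolar RNAs 7 fell and 0 rose, 1 fell without DMSO replicate 2 or JQ1 replicate 1, and 4 fell without JQ1 replicate 2. Of 35 Hox genes tested 5 rose and 0 fell, and none rose without JQ1 replicate 1.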
